A study of Mus musculus with 4 samples.

Results

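Of the 32285 genes counted on 4 mouse brain sections, 7 genes of inhibitory neurons and calcium-binding proteins were followed here: *Gad1*, *Gad2*, *Slc32a1*, *Pvalb*, *Calb1*, *Calb2* and *Lhx6*. They were chosen by symbol, each symbol matched 1 row of the files, and all 7 were detected in each section. The sections were cut at 10 µm from fresh frozen brain and placed on Visium slides, where each barcoded spot captures the polyadenylated RNA of the tissue above it, so that 1 spot can hold several cells. All 4 sections carry the single genotype *Nf1*+/-, 1 mutant and 1 intact allele of the neurofibromatosis gene by label, and neither a wild-type section nor a treatment was part of the comparison. The labels give no age, and how many mice the 4 sections stand for is not stated. The SDs below therefore measure the spread between sections, which may be technical. The SEs and p-values take sections as replicates too, in fits where the classes share 1 estimate of the spread.

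GABA, the main inhibitory transmitter of the brain, is made from glutamate by glutamate decarboxylase and loaded into synaptic vesicles by a dedicated transporter. In cortex it is released by local interneurons, which are a minority among glutamatergic neurons, whereas in the striatum the projection neurons themselves are GABAergic. Parvalbumin, calbindin and calretinin are small proteins with EF-hand calcium-binding motifs that buffer calcium in the cytoplasm. They are used in anatomy to tell interneuron classes apart, but calbindin is also made by striatal projection neurons and by upper-layer pyramidal neurons.

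In the mouse genome build GRCm38.p6, which is the mm10 build named in the submitters' processing notes, RefSeq places *Gad1* at chr2:70561303-70602014, *Gad2* at chr2:22621015-22693877 and *Slc32a1* at chr2:158607260-158615747. *Pvalb* lies at chr15:78191112-78206400, *Calb1* at chr4:15881264-15906709, *Calb2* at chr8:110142526-110168212 and *Lhx6* at chr2:36081950-36105992. The 250 bases upstream of the outermost *Pvalb* start (chr15:78206401-78206650, minus strand) are shown because *Pvalb* was lower in striatal than in cortical spots while *Gad1*, *Gad2* and *Slc32a1* were higher, and capitals mark CG pairs.
*Pvalb*: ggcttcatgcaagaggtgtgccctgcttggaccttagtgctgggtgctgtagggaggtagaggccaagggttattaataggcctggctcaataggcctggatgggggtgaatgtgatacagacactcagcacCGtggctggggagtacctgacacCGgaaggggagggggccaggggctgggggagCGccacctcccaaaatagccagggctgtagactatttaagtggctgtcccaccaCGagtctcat
This window held 4 CG pairs, where the median over 32851 RefSeq mouse promoters was 6 and 62.2% of them held at least as many. The window of another annotated *Pvalb* start, inside the gene, held 23. The counts describe these letters only.

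Sections 1 to 4 held between 19261710 and 37002379 unique molecular identifiers (UMIs, each counting 1 captured RNA molecule), and the 7620 spots with at least 500 UMIs were used, with section medians of 8862.5 to 15296.5 UMIs. Spots were classed by 5 lists of 8 marker genes, none of them among the 7 genes, and a spot took the list with its highest score (excess of list UMIs over the number its depth predicts). The lists gave 1786 cortical, 1635 striatal, 933 subcortical and 1056 white matter spots, and 1315 spots scored too low on each. Beyond the lists, 51, 93, 34 and 199 further genes were at least 2-fold above the mean of the other classes in all 4 sections in cortical, striatal, subcortical and white matter spots. That mean included the spots of no class, and a gene could pass without being 2-fold above each other class. The subcortical class was led by *Zic1* and *Prkcd*, with *Lbhd2* and *Igfbpl1* next. Its thalamic marker *Slc17a6* averaged 38.0 CPM (UMIs per 1000000 UMIs of the class), against 10.1 CPM in the other classes. Of its 8 list genes, 6 were at least 2-fold above that mean in all 4 sections. The class is called the *Zic1*/*Prkcd* spots here, after the genes that led it. The 895 spots picked by a hippocampal list shared 0 further genes at that size and are not read as hippocampus. Section 1 stood apart in holding 189 spots with at least 3 of 10 choroid plexus markers, against 4, 7 and 76 in sections 2, 3 and 4. Barcodes mark slide positions, and 1330, 2305, 2130 and 1267 of those in sections 1 to 4 also occur in another section.

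*Gad1* and *Gad2*, which encode the 2 forms of glutamate decarboxylase, and *Slc32a1*, which encodes the vesicular GABA transporter, were higher in striatal than in cortical spots. *Gad1* stood at 230.0, 277, 261 and 253 CPM in the cortical spots of sections 1 to 4 (mean 255 ± 19.5, SD, n = 4 sections) and at 382, 419.8, 471 and 396 CPM in the striatal spots (mean 417 ± 39.1). The striatal value was the higher in each section, and the groups did not overlap. *Gad2* averaged 95.3 ± 9.81 CPM in cortical and 261 ± 27.3 CPM in striatal spots, and *Slc32a1* 91.9 ± 11.9 and 262 ± 26.4 CPM, again with no overlap. The log2 fold change of striatal over cortical spots was 0.85 for *Gad1* (SE 0.087, adjusted p = 2.74e-09 by the quasi-likelihood test of edgeR), 1.60 for *Gad2* (0.10, adjusted p = 1.02e-13) and 1.65 for *Slc32a1* (0.083, adjusted p = 1.16e-15). The rise was thus about 3-fold for *Gad2* and *Slc32a1* (3.02 and 3.14) and 1.80-fold for *Gad1*. Differences in a spot sum can come from more cells of a type or from more RNA per cell, which cannot be told apart here.

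**Figure D1:**
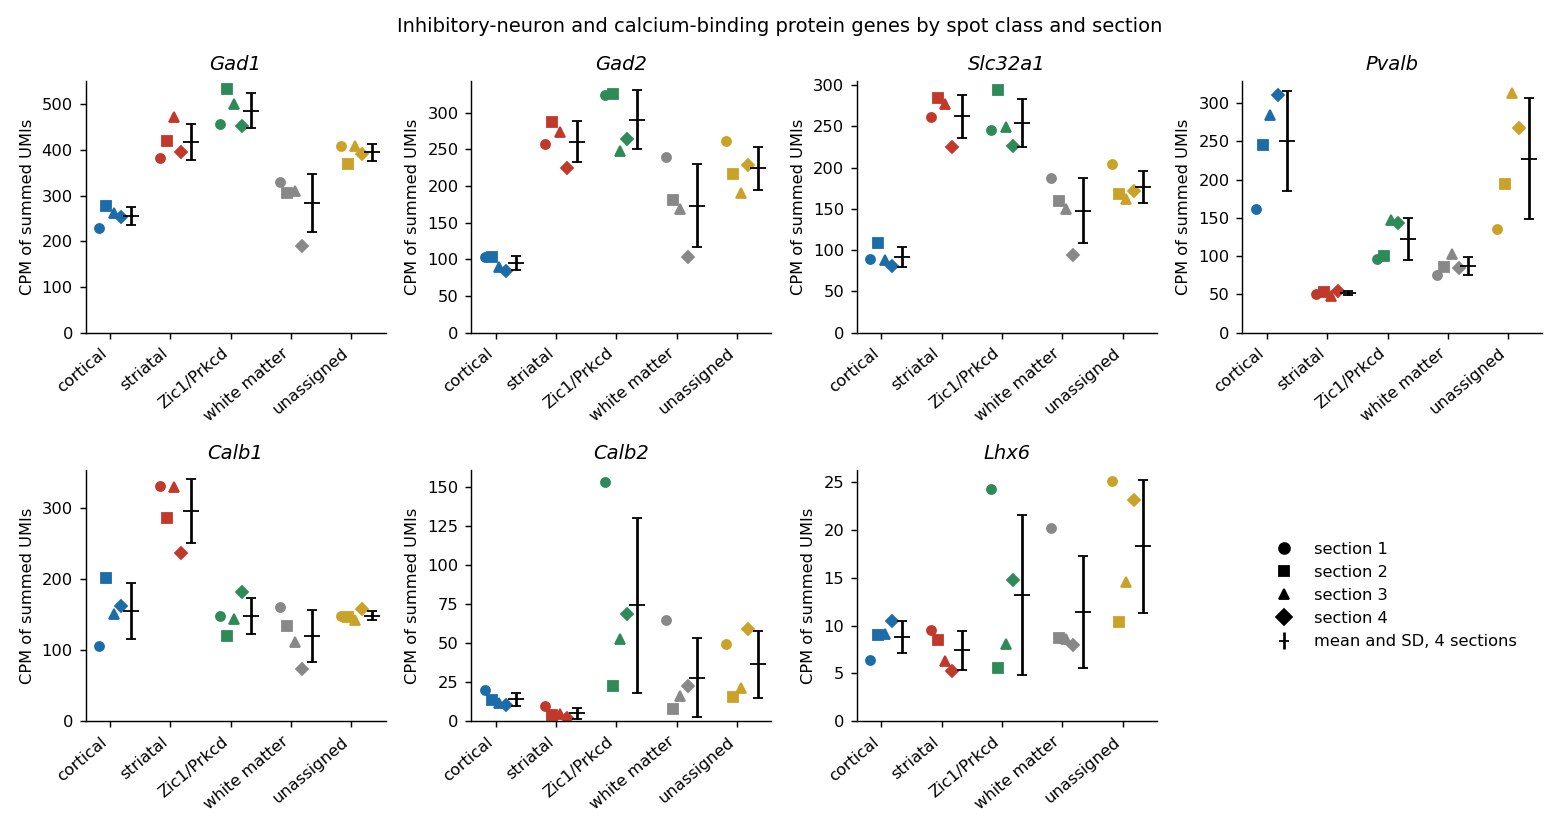
Level in CPM (y axes starting at 0) of the 7 genes in 5 spot classes (x axes), with 1 symbol per section and, beside them, the mean and SD over 4 sections. *Pvalb* is highest in cortical spots (mean 250.4 CPM) and lowest in striatal spots (51.5 CPM). *Calb1* is lower in cortical than in striatal spots (155 and 296 CPM), but cortical spots are not its lowest class. The *Calb2* value of section 1 (153 CPM) stands above the other *Zic1*/*Prkcd* spots.

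Of the 7 genes, 4 rose and 2 fell in striatal against cortical spots at an adjusted p under 0.05, the threshold used throughout, where 25.2% of the 13141 genes tested rose and 23.7% fell (48.9% in either direction). *Lhx6* was the gene that did not pass. The share of all genes whose section values did not overlap between classes is not given here. Non-overlap is therefore not read as particular to these genes. The median log2 fold change over all genes tested was 0.038. With scaling to total UMIs it was −0.11, and the split of 3305 higher and 3119 lower genes became 1981 and 4495, while the same 6 of the 7 genes passed in the same directions.

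*Pvalb*, which encodes parvalbumin, the calcium buffer of fast-spiking interneurons, ran opposite to the GABA genes between cortex and striatum. It stood at 162, 245, 284 and 311 CPM in cortical spots (mean 250.4 ± 65.1), at 50.3, 53.0, 48.2 and 54.6 CPM in striatal spots (51.5 ± 2.82) and at 96.3, 101, 148 and 143 CPM in *Zic1*/*Prkcd* spots (122 ± 27.3). No section value of 1 class overlapped those of another. Striatal spots were the most even between sections and cortical spots the least, with section 1 the lowest. The log2 fold change was −2.09 for striatal over cortical spots (SE 0.11, adjusted p = 5.20e-15 from edgeR), −1.05 for *Zic1*/*Prkcd* over cortical spots (0.11, adjusted p = 2.18e-08) and 1.04 for *Zic1*/*Prkcd* over striatal spots (0.13, adjusted p = 1.19e-07). Cortical spots held 46.9 ± 16.1% of the *Pvalb* UMIs of a section and 30.7% of all its UMIs (SD, n = 4 sections).

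*Calb1*, which encodes calbindin, had the reverse order between cortex and striatum. It stood at 106, 201, 150.4 and 162 CPM in cortical spots (mean 155 ± 39.1) and at 331, 286, 329.6 and 237 CPM in striatal spots (296 ± 44.6), with no overlap. *Zic1*/*Prkcd* spots held 148, 120.2, 143 and 182 CPM (148 ± 25.6), a range that overlapped the cortical one. Relative to cortical spots, *Calb1* rose by 1.05 on the log2 scale in striatal spots (SE 0.14, adjusted p = 3.07e-07 from edgeR). Relative to striatal spots, it fell by 1.18 in *Zic1*/*Prkcd* spots (0.15, adjusted p = 2.72e-07 from edgeR). Between *Zic1*/*Prkcd* and cortical spots the value was −0.13 (0.15, adjusted p = 0.557), and the sections split 2 and 2 in direction.

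The separation of the 2 calcium-binding genes shows in their UMI ratio within a class, which does not depend on class depth. *Calb1* over *Pvalb* was 0.632 ± 0.140 in cortical, 1.24 ± 0.233 in *Zic1*/*Prkcd* and 5.79 ± 1.15 in striatal spots (SD, n = 4 sections), ranging from 0.522 to 0.821, from 0.970 to 1.53 and from 4.34 to 6.83 over the sections. The 3 ranges did not overlap. The cortical ratio pools the layers described below. It was 1.21 ± 0.164 in upper cortical spots (1.07 to 1.45), which overlapped the *Zic1*/*Prkcd* range, and 0.444 ± 0.197 in deep cortical spots. The ratio of *Gad1* to *Gad2* UMIs was also shifted. It was 2.70 ± 0.348 in cortical spots and 1.61 ± 0.161 in striatal spots, and 1.70 ± 0.252 in *Zic1*/*Prkcd* spots. The cortical ratio of each section (2.22 to 3.01), pooled over layers, lay above every striatal ratio (1.46 to 1.77). In upper cortical spots the ratio of *Gad1* to *Gad2* ran from 2.60 to 2.68. In deep cortical spots it ran from 1.769 to 2.56, and the lowest value lay just inside the striatal range, whose top was 1.770.

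**Figure D2:**
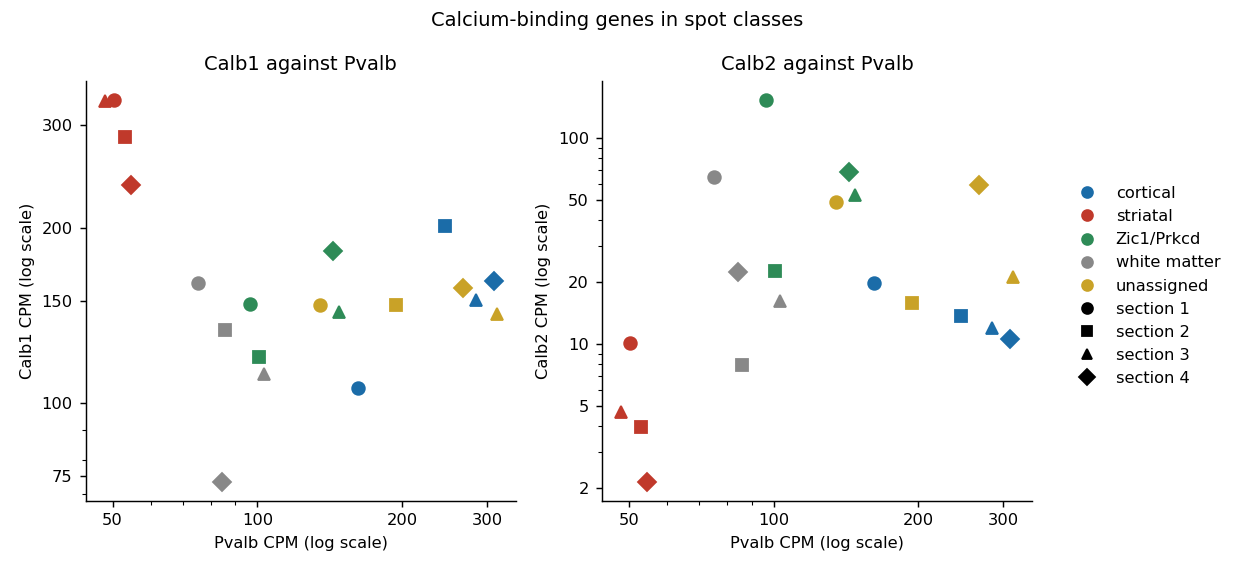
*Calb1* (left) and *Calb2* (right) against *Pvalb*, both axes in CPM on log scales, with 1 point per section and spot class. Striatal points lie at 48.2 to 54.6 CPM of *Pvalb* with 237 to 331 CPM of *Calb1* and 2.15 to 10.1 CPM of *Calb2*, and cortical points at 162 to 311 CPM of *Pvalb* with 106 to 201 CPM of *Calb1*.

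*Calb2*, which encodes calretinin, a marker of several interneuron and subcortical neuron types, was scarce in cortex and striatum and highest in *Zic1*/*Prkcd* spots. It stood at 19.8, 13.8, 12.04 and 10.6 CPM in cortical spots and at 10.1, 3.96, 4.69 and 2.15 CPM in striatal spots, the last from 9 UMIs. *Zic1*/*Prkcd* spots held 153, 22.7, 52.8 and 68.6 CPM (mean 74.4 ± 56.0). Every section was above its own cortical and striatal value, with section 1 the highest and section 2 the lowest. The log2 fold change over cortical spots was 2.12 (SE 0.23, adjusted p = 2.33e-08 from edgeR) and that over striatal spots 3.49 (0.28, adjusted p = 4.30e-11), an 11.2-fold difference. Section log2 ratios against cortical spots ran from 0.72 to 2.95, and those against striatal spots from 2.52 to 4.99. Of the 233 *Zic1*/*Prkcd* spots of section 1, 52 also held choroid plexus markers, and the log2 fold change over cortical spots was 2.13 with such spots left out. In striatal over cortical spots *Calb2* stood at −1.37 (0.31, adjusted p = 0.000605 from edgeR), a call that was lost without the section block (−1.24, adjusted p = 0.111) and with k-means clusters, named by the same lists, in place of single spots classed by score (−0.89, adjusted p = 0.0764).

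*Lhx6* encodes a transcription factor of interneurons born in the medial ganglionic eminence, the source of parvalbumin interneurons. It was the rarest of the 7 genes, with 1168 UMIs in all sections together, and passed in none of the 4 comparisons of cortical, striatal, *Zic1*/*Prkcd* and layer spots. It stood at 6.45, 8.99, 9.16 and 10.5 CPM in cortical, 9.59, 8.50, 6.25 and 5.27 CPM in striatal and 24.2, 5.56, 8.13 and 14.8 CPM in *Zic1*/*Prkcd* spots, and these ranges overlapped. The log2 fold change was −0.13 for striatal over cortical spots (SE 0.23, adjusted p = 0.680 from edgeR), 0.40 for *Zic1*/*Prkcd* over cortical spots (0.25, adjusted p = 0.241) and 0.53 for *Zic1*/*Prkcd* over striatal spots (0.27, adjusted p = 0.121). The value against cortical spots passed without section 2 (0.75, adjusted p = 0.0376) and turned to −0.15 without section 1. The value against striatal spots passed without section 2 (0.97, adjusted p = 0.00996) and stood at 0.10 without section 1. Spots that scored too low for any class held 18.3 ± 6.97 CPM, the highest mean of *Lhx6* among the classes.

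The *Zic1*/*Prkcd* spots also carried the GABA genes at a high level. *Gad1* stood at 457, 534, 501 and 453 CPM there (mean 486 ± 38.4), *Gad2* at 324, 326, 247 and 264 CPM (290.3 ± 40.3) and *Slc32a1* at 245, 294, 249.7 and 226 CPM (254 ± 28.8). Each was above every cortical value. The log2 fold change over cortical spots was 0.92 for *Gad1* (SE 0.089, adjusted p = 3.52e-09 from edgeR), 1.59 for *Gad2* (0.10, adjusted p = 4.05e-12) and 1.45 for *Slc32a1* (0.087, adjusted p = 8.36e-13). Of the 7 genes, 4 rose and 1 fell in this comparison, where 16.2% of the genes tested rose and 18.2% fell (34.4% in either direction). Against striatal spots the log2 fold change was 0.065 for *Gad1* (0.088, adjusted p = 0.601 from edgeR), −0.0067 for *Gad2* (0.098, adjusted p = 0.972) and −0.20 for *Slc32a1* (0.082, adjusted p = 0.0505). Before the scaling of edgeR, the CPM of *Gad1* was higher than in striatal spots of the same section in 4 of 4 sections (log2 ratio 0.088 to 0.35), that of *Gad2* in 3 and that of *Slc32a1* in 2. *Slc32a1* passed without section 2 (−0.26, adjusted p = 0.0415). There 2 of the 7 genes rose (*Pvalb* and *Calb2*) and 1 fell (*Calb1*), where 19.0% of the genes tested rose and 19.5% fell (38.5% in either direction). In that comparison total-UMI scaling moved the median of all genes from −0.0045 to 0.15 and the split from 2502 higher and 2558 lower to 4071 and 1475, and *Gad1* then passed at 0.22 (adjusted p = 0.0344).

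The size of these values, and the calls of the GABA genes against striatal spots, depended on the 2 genes that led the class. With *Zic1* and *Prkcd* taken out of the subcortical list, a choice made after the data were seen, the log2 fold change over cortical spots was 0.43 for *Gad1*, 0.97 for *Gad2*, 0.71 for *Slc32a1*, −0.52 for *Pvalb* and 1.32 for *Calb2*, each still past the threshold. Against striatal spots *Gad1* then fell by 0.41, *Gad2* by 0.62 and *Slc32a1* by 0.91, all past the threshold, and *Calb2* rose by 2.72.

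**Figure D3:**
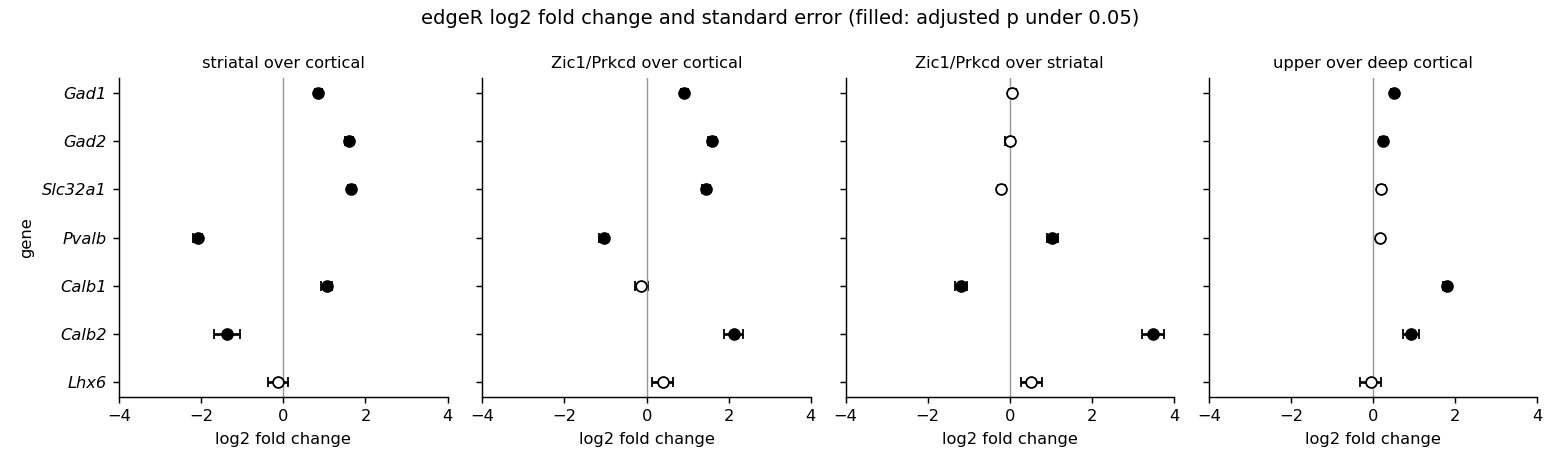
edgeR log2 fold change (x axes, points) with its SE (bars) for the 7 genes (y axis) in 4 comparisons of spot classes, filled where the adjusted p is under 0.05. *Gad1*, *Gad2* and *Slc32a1* lie right of 0 in both comparisons with cortical spots and near 0 between *Zic1*/*Prkcd* and striatal spots, where *Calb2* reaches 3.49 and *Calb1* lies at −1.18.

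Within the cortex, spots were split by lists of 5 upper-layer and 5 deep-layer genes into 497 upper and 658 deep spots, which left 631 cortical spots that scored too low on both. *Calb1* separated the layers most. It stood at 80.3, 96.3, 68.8 and 71.2 CPM in the deep spots of sections 1 to 4 and at 177, 305, 278 and 322 CPM in the upper spots, with no overlap and a log2 fold change of 1.80 (SE 0.090, adjusted p = 2.77e-18 from edgeR). Its section log2 ratios ran from 1.14 to 2.18. *Calb2* was also higher in upper spots (13.8, 10.5, 11.02 and 7.56 CPM deep, 34.2, 17.8, 14.8 and 16.8 CPM upper, log2 fold change 0.93, SE 0.19, adjusted p = 0.000483 from edgeR). These upper values rest on 27, 100, 24 and 33 UMIs. *Gad1* rose from a mean of 196 ± 13.9 CPM in deep to 279 ± 14.1 CPM in upper spots, without overlap (0.50, SE 0.065, adjusted p = 2.19e-07 from edgeR).

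The other genes differed little between the layers. *Gad2* passed narrowly (0.25, SE 0.085, adjusted p = 0.0439 from edgeR), its section values overlapped, and it lost the call in 9 of 15 alternatives, among them those without section 2, 3 or 4 (0.34, 0.17 and 0.23). *Slc32a1* (0.20, adjusted p = 0.119), *Pvalb* (0.18, adjusted p = 0.0965) and *Lhx6* (−0.059, adjusted p = 0.935) did not pass, although *Pvalb* did so without section 2 (0.28, adjusted p = 0.0367). Of the 7 genes, 4 rose and 0 fell, where 6.30% of the 11212 genes tested in this fit rose and 5.65% fell (11.9% in either direction).

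The 631 cortical spots of neither layer list carried more *Pvalb* than either layer. They held 294, 311, 376 and 368 CPM in sections 1 to 4 (mean 337 ± 40.7), against 152, 211, 260.3 and 279 CPM in upper spots and 112, 213, 207 and 260.5 CPM in deep spots, and the lowest of the first lay above the highest of the others. *Gad1* stood highest there too, at 303, 314, 306 and 296 CPM, whereas *Calb1* (133 ± 15.2 CPM) lay between deep and upper spots. No test was made of these spots, which were looked at after the layer values were seen. They were picked by low scores on both lists of layer genes, so their levels are not independent of that choice. Its part in the *Pvalb* and *Gad1* values was not tested.

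**Figure D4:**
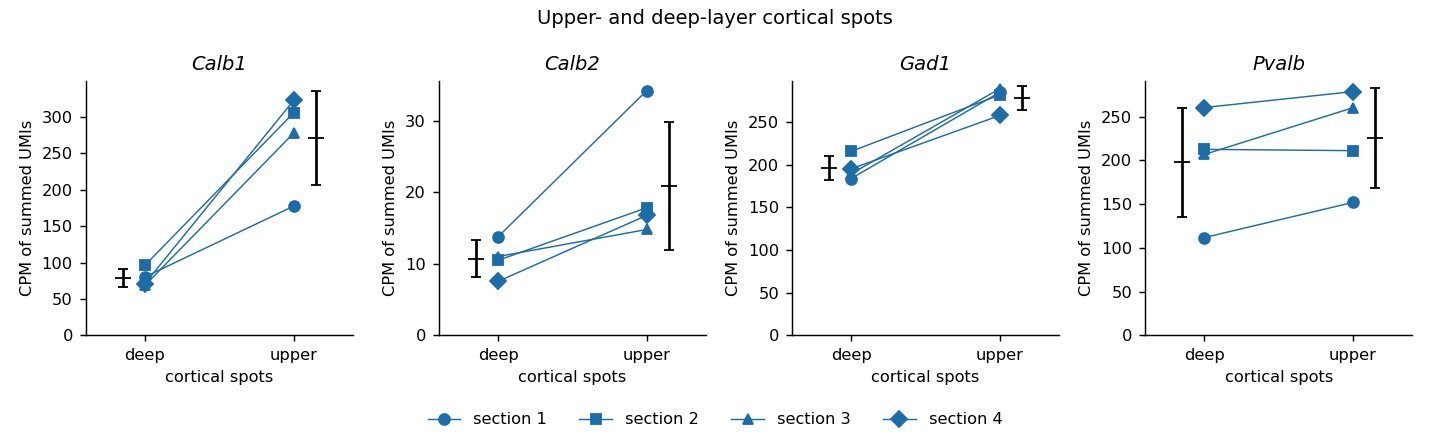
CPM (y axes starting at 0) of *Calb1*, *Calb2*, *Gad1* and *Pvalb* in deep and upper cortical spots (x axes), with lines joining the 2 values of each of the 4 sections and the mean and SD beside them. *Calb1* rises in all 4 sections, from a mean of 79.2 to 271 CPM, while *Pvalb* changes from 198 to 226 CPM with overlapping section values.

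Whether the genes lay in the same spots was described by a correlation over the spots of 1 section and class. UMIs were scaled for spot depth by each gene's mean share of UMIs over the 4 sections, not by its level in the class. Where a class lies above or below that share, depth can still enter the correlation, and its part was not tested. No p-value was taken, since spots of a section are no replicates and share its library. In cortical spots *Pvalb* and *Gad1* correlated at 0.468 to 0.603 in the 4 sections. *Calb1* and *Gad1* did so at −0.0818 to 0.146, and *Gad1* and *Gad2* at 0.226 to 0.344. Among cortical spots of 1 layer class, *Pvalb* and *Gad1* correlated at 0.133 to 0.551 in upper spots, at 0.253 to 0.609 in deep spots and at 0.625 to 0.715 in spots of neither list, with the lowest upper and deep values in section 1, which held 37 upper spots. The same pair stood at 0.0719 to 0.287 in striatal and at −0.0505 to 0.0868 in *Zic1*/*Prkcd* spots, where *Gad1* and *Gad2* correlated at 0.332 to 0.471. A *Pvalb* UMI was found in 79.3% of cortical, 44.2% of striatal and 47.7% of *Zic1*/*Prkcd* spots. Sparse counts can hold a correlation low, and their part here was not tested. No difference between classes in where *Pvalb* and *Gad1* lie is read from these values.

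**Figure D5:**
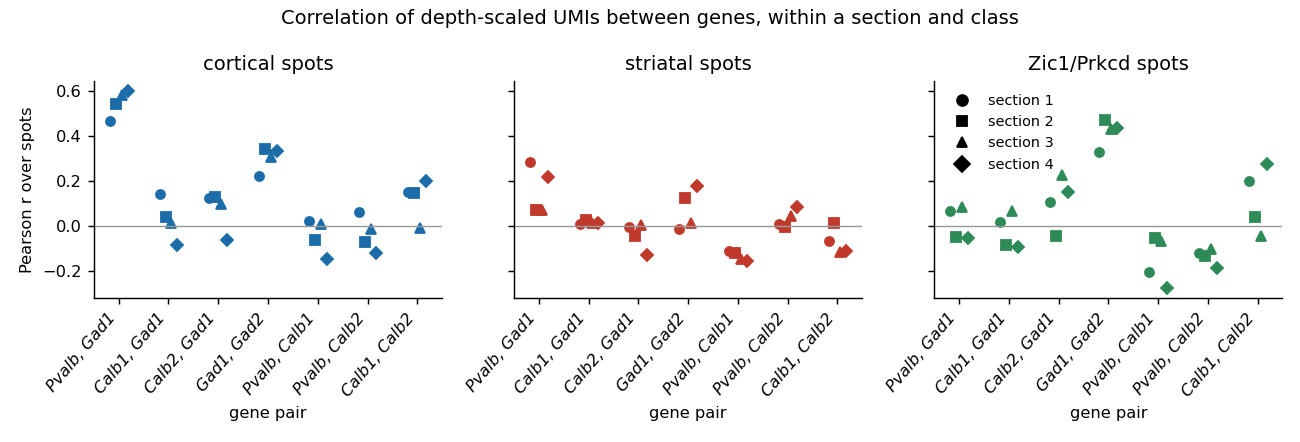
Pearson r (y axis) over the spots of a section for 7 gene pairs (x axes) in cortical, striatal and *Zic1*/*Prkcd* spots, with 1 symbol per section. UMIs were scaled for spot depth by each gene's mean share over the sections, so depth can still enter r. *Pvalb* and *Gad1* stand at 0.468 to 0.603 in cortical spots and at −0.0505 to 0.287 in the other classes shown, where *Pvalb* counts are sparser. The part of sparse counts in these values was not tested.

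Spots with UMIs of both *Pvalb* and *Calb1* were 1.01 ± 0.0141 times the expected number in cortical spots (SD, n = 4 sections), 0.973 ± 0.0183 times in striatal and 0.984 ± 0.0467 times in *Zic1*/*Prkcd* spots. Where most spots hold 1 of the genes, as with *Calb1* in 90.6% of striatal spots, this ratio is held near 1. In spots thinned to 5000 UMIs the mean ratio was 1.01 in cortical (0.980 to 1.05 over the sections), 0.949 in striatal (0.853 to 1.085) and 0.959 in *Zic1*/*Prkcd* spots (0.917 to 0.985). No separation within a class is read from these ratios. The correlation of *Pvalb* and *Calb1* over spots ran from −0.145 to 0.0254 in cortical spots, from −0.156 to −0.108 in striatal spots and from −0.273 to −0.0503 in *Zic1*/*Prkcd* spots. *Pvalb* and *Calb2* correlated at −0.118 to 0.0625 in cortical and at −0.186 to −0.0988 in *Zic1*/*Prkcd* spots. These are weak correlations in sparse counts, and spot depth can still enter them. A spot of several cells can hold both genes without any cell doing so.

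The share of spots with a UMI was compared after each spot of at least 5000 UMIs was thinned to 5000. This left out 45 cortical, 43 striatal, 92 *Zic1*/*Prkcd* and 439 white matter spots. Unthinned shares in parentheses are those of all spots used, the shallower ones among them. In white matter spots of at least 5000 UMIs the unthinned shares were 40.2% for *Pvalb*, 55.8% for *Calb1*, 13.2% for *Calb2* and 10.1% for *Lhx6*. They were 80.9% for *Gad1*, 67.6% for *Gad2* and 65.1% for *Slc32a1*. After thinning, *Pvalb* was found in 54.9 ± 12.6% of cortical, 20.3 ± 2.85% of striatal and 30.5 ± 4.93% of *Zic1*/*Prkcd* spots (79.3, 44.2 and 47.7% unthinned). It was found in 28.4 ± 3.82% of white matter spots (28.8% unthinned). *Calb1* was found in 45.5, 70.8 and 47.1% of the 3 classes (72.7, 90.6 and 66.4% unthinned), against 39.3% of white matter spots (41.7%). *Calb2* was found in 6.73, 2.75 and 19.1% (17.5, 7.51 and 30.9% unthinned), against 7.97% (11.9%). *Lhx6* was found in 4.58, 4.05 and 5.25% of the 3 classes against 5.81% of white matter spots (13.4, 10.2 and 11.9% against 6.92% unthinned). *Gad1* was found in 62.0, 85.1 and 82.8% against 67.0% (88.8, 98.1 and 91.5% against 61.8% unthinned), *Gad2* in 34.7, 71.1 and 68.7% against 52.2% (70.0, 93.7 and 83.9% against 52.1%) and *Slc32a1* in 32.6, 73.1 and 62.5% against 48.4% (67.2, 94.9 and 79.5% against 46.3%). After thinning, the mean white matter share thus lay above the cortical one for *Gad1*, *Gad2*, *Slc32a1*, *Calb2* and *Lhx6*. It lay above the striatal one for *Pvalb*, *Calb2* and *Lhx6*. Over all spots unthinned, only *Calb2* against striatal spots stood that way. By section, thinned *Calb2* was lower in white matter than in cortical spots in sections 2 and 3 (1.85 and 5.68% against 6.27 and 5.72%). So were *Lhx6* in sections 3 and 4 (5.11 and 4.42% against 5.72 and 4.75%) and *Gad1* in section 4 (56.6% against 61.8%). Median depth per section was 12450 to 19484.5 UMIs in cortical, 10406 to 16715 in striatal, 8154 to 15430 in *Zic1*/*Prkcd* and 4678 to 9468 in white matter spots.

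White matter spots were no empty background for these genes, so their shares set no floor below which a gene is absent, and no class here is known to lack the genes. They held 284 ± 63.2 CPM of *Gad1* and 173 ± 56.3 CPM of *Gad2*, above the cortical means, and section 4 was the lowest for both (190.4 and 102 CPM). *Pvalb* averaged 87.1 ± 11.7 CPM and *Calb1* 119.9 ± 36.8 CPM there.

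Over the whole sections, *Pvalb* and *Calb2* varied more than *Calb1* and *Gad1*. *Pvalb* stood at 99.3, 155, 196 and 210.3 CPM in sections 1 to 4 and *Calb2* at 49.8, 12.2, 19.4 and 23.0 CPM, while *Calb1* stayed between 174 and 208 CPM and *Gad1* between 321 and 388 CPM. A single spot held up to 55 *Pvalb* UMIs, up to 56 of *Gad1* and up to 38 of *Calb2*. Section 1 was thus lowest in *Pvalb* and highest in *Calb2*, and the sections differed in the makeup of their spots, with 212 cortical spots in section 1 and 692 in section 2. Within cortical spots section 1 was lowest in *Pvalb* too (162 CPM, against 245 to 311 in the others). The same held within *Zic1*/*Prkcd* spots (96.3 against 101 to 148 CPM), but not within striatal spots (50.3 against 48.2 to 54.6 CPM). The part of spot makeup in the section differences was not tested.

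The genes whose pattern over the 20 sums of 4 sections and 5 classes was most like each of the 7 were found by Pearson correlation of log2(CPM + 1) among 11142 other genes, as a description. *Pvalb* was closest to *Fkbp1b* (0.977), *Baalc* (0.964) and *Nrn1* (0.962). *Gad2* was closest to *Isl1* (0.961), *Abat* (0.934) and *Nrsn2* (0.928), and *Slc32a1* to *Abat* (0.953), *Isl1* (0.941) and *Rerg* (0.934). *Abat* encodes GABA transaminase, the enzyme that degrades GABA. *Gad1* was closest to *Gria1* (0.908), *Itm2c* (0.896) and *Myh7* (0.867), and *Calb1* to *Gmpr* (0.869), *Mpp6* (0.865) and *Sptb* (0.855). *Calb2* was closest to *Slc6a11*, a GABA transporter of astrocytes (0.952), *Prmt2* (0.942) and *Resp18* (0.924), and *Lhx6*, with lower values, to *Sparc* (0.833), *Crh* (0.811) and *Prkra* (0.784). Among the 7 genes themselves, *Gad2* and *Slc32a1* correlated at 0.970, *Gad1* and *Slc32a1* at 0.921, *Calb2* and *Lhx6* at 0.725, and *Pvalb* and *Slc32a1* at −0.65. The sums of 1 section share its library, and those of 1 class its markers.

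Other interneuron genes were taken from a list of 36, and all 36 were tested between regions. In striatal against cortical spots 10 rose and 20 fell (median log2 fold change −0.54, against 0.038 over all genes, of which 25.2% rose and 23.7% fell). The largest rises were *Tac1* (3.58, adjusted p = 1.71e-16 from edgeR), a neuropeptide precursor that striatal projection neurons also make, and *Nkx2-1* (2.73), a transcription factor of the medial ganglionic eminence. The largest falls were the neuropeptides *Vip* (−3.22) and *Cck* (−2.64), of which *Cck* is also made by pyramidal neurons. In *Zic1*/*Prkcd* over cortical spots 15 rose and 11 fell (median 0.063, against −0.0023 with 16.2% and 18.2% over all genes), with *Sp8* (3.39) and *Nkx2-1* (3.02) at the top and *Vip* (−1.87) and *Cort* (−1.68) at the bottom. In *Zic1*/*Prkcd* over striatal spots 19 rose and 7 fell (median 0.53, against −0.0045 with 19.0% and 19.5%), led by the transcription factors *Sp8* (4.07) and *Dlx1* (3.06), with *Tac1* (−2.49) and *Dlx6* (−0.78) the largest falls. In upper over deep cortical spots 11 of 32 tested rose and 2 fell (median 0.31, against −0.0021 with 6.30% and 5.65%), *Tac2* (1.84) and *Lamp5* (1.54) rising most, while *Tac1* fell by 0.41 and *Satb1* by 0.32.

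Of 23 further EF-hand and calcium sensor genes, 22 were tested. In striatal over cortical spots 6 rose and 11 fell (median −0.18, against 0.038 with 25.2% and 23.7% over all genes), with *Necab2* (2.71) and *Hpca* (1.81), which encodes hippocalcin, rising most and *Vsnl1* (−2.30) and *Necab3* (−2.26) falling most. In *Zic1*/*Prkcd* over cortical spots 4 rose and 13 fell (median −0.31, against −0.0023 with 16.2% and 18.2%), *Necab2* (1.80) and *Kcnip1* (0.91) against *Necab3* (−1.56) and *Cabp1* (−1.48). In *Zic1*/*Prkcd* over striatal spots 9 rose and 8 fell (median 0.13, against −0.0045 with 19.0% and 19.5%), *Vsnl1* (1.97) and *Kcnip1* (1.96), a potassium channel-interacting protein, against *Hpca* (−2.26) and *Caln1* (−1.61). In upper over deep cortical spots 7 rose and 3 fell (median 0.071, against −0.0021 with 6.30% and 5.65%), *Kcnip2* (0.56) and *Cabp1* (0.37) against *Kcnip3* (−0.64) and *Efhd2* (−0.59).

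Against cortical spots, the spots of the hippocampal list, which are not read as a region, gave log2 fold changes of 0.55 for *Gad1*, 1.295 for *Gad2*, 1.06 for *Slc32a1*, −0.75 for *Pvalb*, 0.23 for *Calb1*, 0.97 for *Calb2* and 0.76 for *Lhx6*, with *Calb1* alone not past the threshold by edgeR, where 25.9% of the genes tested passed. There *Calb2* lost its call without section 4 (0.65, adjusted p = 0.0675), *Lhx6* without section 1 (0.61, adjusted p = 0.0521), and both without the section block (1.20 and 0.85).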

How the data were processed

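Reads were counted by the authors in Space Ranger 1.3.1 (per the file headers), on mm10 (per the labels). The deposited values are UMI counts with no normalization. Permeabilization took place on the slide, so RNA can spread between spots. Sections are numbered in accession order, which only names them. No section was a copy of another (chi-square over genes divided by its degrees of freedom, 14.5 to 55.4 for the pairs).

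A spot's score for a list was the mean Pearson residual of its 8 genes (overdispersion parameter 100, clipped at 10) given the spot's total, divided by its SD over spots. The highest score decided the class if at least 0.5. Of the cortical, striatal and subcortical spots, 275, 157 and 109 scored 0.5 to 0.75, and 578 spots of no class scored 0.25 to 0.5. Doublets have no meaning for spots, and no caller was run.

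Counts were summed per section and class and tested with edgeR 4.0.16 in R 4.3.3 (TMM, filterByExpr, quasi-likelihood test, section as block, Benjamini-Hochberg adjustment over all genes tested). The SE of a log2 fold change was taken as its size over √F. The sums of the 5 classes were in 1 fit and shared 1 estimate of the spread, so an SE is not the spread of the section ratios. The section log2 ratios of *Calb1* in striatal over cortical spots had an SD of 0.54, beside an SE of 0.14. Those of *Calb2* in *Zic1*/*Prkcd* over cortical spots had an SD of 0.996, beside an SE of 0.23. The layer fit held the upper and deep sums only, and its SEs and p-values do not measure the spread of the section ratios either. The section log2 ratios of *Calb1* in upper over deep spots had an SD of 0.46, beside an SE of 0.090. Both classes lie in each section, which pairs them, and over genes the deviations of 1 section from both class means had a correlation of 0.254 to 0.489. Class list genes are not counted among the genes called, 40 in the region fit and 46 in the layer fit. On simulated counts with 200 genes changed by a log2 fold change of 1, the test called 188 in striatal over cortical spots, 175 in *Zic1*/*Prkcd* over cortical, 171 in *Zic1*/*Prkcd* over striatal and 186 in upper over deep spots, 0 of them in the wrong direction, together with 5, 6, 6 and 15 unchanged genes. The simulated counts used the fitted means and the dispersion trend, so no gene had a spread beyond that trend. These calls therefore do not cover genes whose class difference varies more between sections.

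Expected co-detection was computed in depth bins within a section and class. The 7 genes and both gene lists were chosen with earlier results of these data known. Named genes were the 7, the 3 most alike genes of each (mean of at least 5 CPM), and for each list and comparison the 2 largest rises and 2 largest falls past the threshold. The alternatives were DESeq2 1.42.0, scaling by total UMIs, every gene with a count, all deposited spots, spots of at least 5000 UMIs, a score of at least 1, a lead of at least 0.5 over the next score, 10 k-means clusters per section (scikit-learn 1.9.0, the 7 genes left out), choroid plexus-marker spots left out, a fit with no block, and a fit without each section. Each k-means cluster took the class whose list had the highest mean score over its spots, with no minimum score. Classing without the hippocampal list, the subcortical list without *Zic1* and *Prkcd*, and co-detection in thinned spots were added after the data were seen. The outlines of the study's own regions were not used here.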

Additional observations from a re-analysis of the deposited data

Results flagged for a closer look

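Of 77 values compared over the 4 sections (the CPM of the 7 genes in 7 spot groups and their log2 ratios between classes), 4 had 1 section far from the other 3, where chance gives about 3.85. In upper cortical spots *Calb2* stood at 34.2 CPM in section 1, from 27 UMIs, and at 14.8 to 17.8 CPM in the other sections. In white matter spots *Lhx6* stood at 20.1 CPM in section 1, from 52 UMIs, and at 7.99 to 8.74 CPM in the others. The log2 ratio of *Calb1* between *Zic1*/*Prkcd* and striatal spots reached −0.38 in section 4, where the others ran from −1.25 to −1.16. The log2 ratio of *Gad2* between *Zic1*/*Prkcd* and cortical spots fell to 1.46 in section 3, where the others ran from 1.64 to 1.65. No explanation was tested for any of them.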

How the results depend on the processing

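Of 440 member values under an alternative (the hippocampal list left aside), 393 kept their direction and their side of the threshold, 11 lost and 18 gained a call, and 18 changed sign. Of these last, 1 passed the threshold. *Gad2*, *Slc32a1* and *Gad1* in striatal or *Zic1*/*Prkcd* over cortical spots, *Pvalb* between the 3 regions, *Calb1* in striatal spots against the others and in upper over deep spots, and *Calb2* in *Zic1*/*Prkcd* spots and in upper over deep spots passed in the same direction under each alternative run. Except where an alternative uses fewer samples or spots, the cause of a change was not tested. The section block was the pairing. Without it the log2 fold change of *Calb2* in striatal over cortical spots (−1.24) and of *Gad2* in upper over deep spots (0.25) lost the call, *Gad2* in *Zic1*/*Prkcd* over striatal spots (0.0042) and *Lhx6* in upper over deep spots (0.060) changed sign, and 594 genes in place of 1339 were called in upper over deep spots and 2100 in place of 3402 for the hippocampal list. The block changed no other call of the 7 genes in the other comparisons of regions or layers.

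With k-means clusters *Calb2* in striatal over cortical spots (−0.89) lost the call, *Lhx6* turned to 0.13 there and passed in *Zic1*/*Prkcd* spots over cortical (1.11) and over striatal spots (0.99), and *Gad2* (0.23) and *Slc32a1* (0.030) changed sign in *Zic1*/*Prkcd* over striatal spots. In that last comparison total-UMI scaling gave 0.22 for *Gad1* and 0.68 for *Lhx6*, both past the threshold, and 0.15 for *Gad2*. *Gad2* stood there at 0.0065 with DESeq2, 0.0031 with spots of at least 5000 UMIs, 0.14 with a score of at least 1 and 0.14 with a lead of 0.5. *Slc32a1* passed with no filter (−0.22), all deposited spots (−0.21), spots of at least 5000 UMIs (−0.19) and without choroid plexus-marker spots (−0.22), and *Lhx6* passed with no filter (0.51). The list without *Zic1* and *Prkcd* gave −0.41 for *Gad1*, −0.62 for *Gad2*, −0.91 for *Slc32a1* and 0.66 for *Lhx6*, all past the threshold, and 2539 genes called in place of 4522 over cortical spots.

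In upper over deep spots *Gad2* lost the call with total-UMI scaling (0.24), no filter (0.25), DESeq2 (0.27), a lead of 0.5 (0.18) and the list without *Zic1* and *Prkcd* (0.21). *Pvalb* gained one with a score of at least 1 (0.35) and without the hippocampal list (0.19), *Lhx6* turned to 0.086 with DESeq2, and DESeq2 called 486 genes. Leaving out 1 section gave −0.25 to 0.010 for *Lhx6* in striatal over cortical spots. In *Zic1*/*Prkcd* over cortical spots it gave −0.24 to 0.13 for *Calb1* and −0.15 to 0.75 for *Lhx6*. In *Zic1*/*Prkcd* over striatal spots it gave −0.044 to 0.080 for *Gad2*, −0.26 to −0.17 for *Slc32a1* and 0.10 to 0.97 for *Lhx6*. In upper over deep spots it gave 0.17 to 0.34 for *Gad2*, 0.13 to 0.28 for *Pvalb* and −0.17 to 0.19 for *Lhx6*, with 728 to 1435 genes called (728 without section 2 and 813 without section 4), and for the hippocampal list 2212 (without section 1) to 2990. The sign of *Calb1* turned without section 2.

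With expected co-detection from depth bins over all classes, the ratio of *Pvalb* and *Calb1* was 1.11 in cortical, 0.826 in striatal and 0.880 in *Zic1*/*Prkcd* spots, which then includes differences between classes. Over the 3 pairs of calcium-binding genes, 13 of 17 alternative co-detection ratios moved by more than the spread between sections. Depth limits *Lhx6* and striatal *Calb2*, which had 9 to 88 UMIs in the striatal sum of a section.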

Other observations

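Beyond the classes, 1315 spots scored too low on each list. They held *Pvalb* at 135, 194, 314 and 268 CPM in sections 1 to 4 (mean 228 ± 79.1, SD, n = 4 sections), *Calb2* at 49.2, 15.8, 21.2 and 59.4 CPM, *Calb1* at 149 ± 6.35 CPM and *Gad1* at 395 ± 19.0 CPM. *Calb1* and *Gad1* were the most even of these between sections, and *Calb2* was high in sections 1 and 4.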
